A study of Mus musculus with 15 samples.

Results

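The cytosolic ribosomal proteins are the protein components of the ribosome, the particle that translates mRNA in the cytoplasm, and they were followed here in mouse cortex sampled 1 month after repeated blows to the head (high-frequency head impact, HF-HI). Members were the listed transcripts annotated as protein-coding in GENCODE M21 whose gene name begins with Rpl or Rps and a digit, or is Rplp0, Rplp1, Rplp2 or Rpsa. Rps6k kinases and names carrying -ps were left out. The rule found 99 transcripts of 80 genes among 10370 listed transcripts of 7739 genes. All libraries came from dissected cortex of male C57BL/6 mice labelled as 12 weeks of age, and no transgene is labelled. Sham mice (n = 7 libraries) were handled and anesthetized without impact, and HF-HI mice (n = 8 libraries) received repeated head impacts under isoflurane on successive days. The labels do not state that every library is a separate animal, so each p-value measures the spread between these libraries.

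A ribosome is assembled from rRNA and ribosomal proteins in a large and a small subunit, and most of the proteins are needed in equal number in each particle. Their mRNAs are short, abundant and present in every cell type of the brain, and in neurons many are also transported into dendrites and axons. Many begin with a C followed by a run of pyrimidines (the 5' terminal oligopyrimidine or TOP tract), through which the mTOR pathway controls how strongly they are translated. Such control need not show in mRNA levels. The comparison of HF-HI with Sham addresses whether their mRNA levels differed 1 month after the impacts.

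Of the 79 canonical ribosomal protein genes, 77 had a listed transcript through the name rule. Fau, which encodes a fusion of a ubiquitin-like protein with a ribosomal protein, was listed but lies outside the rule. The members held 55 transcripts of large subunit genes, 37 of small subunit genes, 4 of the acidic stalk genes Rplp0, Rplp1 and Rplp2, and 1 each of the 3 paralogs Rpl22l1, Rpl7l1 and Rpl36al. GENCODE M21 names 86 protein-coding genes by the rule, and the 6 without a listed transcript, Rps27l among them, were not analysed here. It annotates 226 protein-coding transcripts for the 80 member genes, of which 99 were listed and 127 were not used here.

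Start sites are shown for the matched genes of the members with the smallest p-values, down to Rpl35, and for Rps6, because the pyrimidine tract is the sequence feature this family is known for. RefSeq start sites (GRCm38.p6) were matched by symbol for 60 of the 80 genes, and 20 had no entry, Rplp1 among them. Read on the strand of the gene only, a C at the annotated first base followed by 4 bases that are each C or T was present at one or more RefSeq starts of 13 of the 60 genes (21.7%) and of 813 of 27025 genes in the table (3.01%). Where a gene had several, the start nearest to that of the GENCODE transcript is printed. Each sequence below is 30 bases long and holds 10 bases before the annotated first base and 20 from it. Capitals mark the longest run of C and T near the annotated start, where one of at least 5 bases overlapped it or lay within a few bases of it.
Rps16 (chr7:28350679-28350708, plus strand): ttctgtcgtgacgtagcactcaatgcgcct
Rpl18 (chr7:45718061-45718090, plus strand): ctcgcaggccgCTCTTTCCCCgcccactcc
Rpl6 (chr5:121204491-121204520, plus strand): aCCTCCCgtcattgcttatagaccggaagc
Rps9 (chr7:3704031-3704060, plus strand): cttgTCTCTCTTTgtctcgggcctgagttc
Rps2 (chr17:24720053-24720082, plus strand): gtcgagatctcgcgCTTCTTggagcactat
Rps10 (chr17:27635225-27635254, minus strand): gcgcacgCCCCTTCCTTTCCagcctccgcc
Rpl15 (chr14:18270967-18270996, minus strand): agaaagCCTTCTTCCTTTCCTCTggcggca
Rpl35 (chr2:39005112-39005141, minus strand): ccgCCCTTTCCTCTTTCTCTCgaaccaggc
Rps6 (chr4:86857348-86857377, minus strand): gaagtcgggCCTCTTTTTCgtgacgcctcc
Rps10, Rpl15, Rpl35 and Rps6 met the rule at the annotated base, and the first 5 did not. Of these 5, Rps9 held a run across that position but with a T there, Rpl18 and Rps2 held a run that began just after it, Rpl6 held one that ended before it, and Rps16 held none. RefSeq and GENCODE place several of these starts at different bases, so absence from this window says only that these letters were not found at this position. The printed starts of Rps10, Rpl15, Rpl35 and Rps6 lay 301, 81, 493 and 45 bases from that of the listed transcript. A tract at them does not show that the counted transcript begins with one.

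Library depth differed with the group. Size factors, which scale each library for depth, were 1.26 ± 0.237 in Sham and 0.888 ± 0.290 in HF-HI (SD), and the 99 members drew 65053 to 118301 recovered reads a library in Sham and 38217 to 97179 in HF-HI. HF-HI replicate 2 stood apart from the rest on the first principal component of all transcripts (12.6, against −3.35 to 0.721). The cortical excitatory marker Slc17a7 (mean 5228 normalized counts) was present, as were neuronal, astrocyte and oligodendrocyte markers. Camk2a, 1 of 5 excitatory neuron transcripts, and Snap25, 1 of 8 general neuronal ones, were higher in HF-HI (limma unadjusted p = 0.00165 and unadjusted p = 0.0274), while none of 9 astrocyte or 13 oligodendrocyte transcripts passed. All 4 listed microglia transcripts had lower means in HF-HI (median log2 ratio −0.12, summed level 1485 to 1689 normalized counts in Sham and 1292 to 1672 in HF-HI), of which P2ry12 passed (limma unadjusted p = 0.0323). Aif1 and Tmem119 of microglia were not listed. Of 6 listed striatal marker transcripts, 2 were lower at an unadjusted p under 0.05. Over all transcripts, 8.83% passed that threshold in either direction. The striatal transcripts summed to 1988 to 3462 normalized counts in Sham, against 1562 to 2927 in HF-HI. Of the 2, Ppp1r1b ENSMUST00000078694 had means of 584 in Sham and 394 in HF-HI. The other listed Ppp1r1b transcript, ENSMUST00000137634, went the other way, with 269 and 349 (limma unadjusted p = 0.311). Ttr, the one listed choroid plexus marker, ranged from 21 to 8663 normalized counts over all libraries. The part of depth, HF-HI replicate 2, these markers or dissection in the results below was not tested, apart from the fits named beside them. In bulk tissue, fewer cells of a type and less RNA per cell cannot be told apart.

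Ribosomal protein mRNA made up nearly the same part of the cortical transcriptome in both groups. The members took 1.13% ± 0.0460 of all listed normalized counts in Sham, against 1.11% ± 0.0438 in HF-HI (SD, n = 7 and 8). The lowest, median and highest shares were 1.04%, 1.14% and 1.17% in Sham, and 1.04%, 1.11% and 1.20% in HF-HI. The ranges of the groups overlapped almost fully, and the widest departures were within groups: Sham replicate 5 and HF-HI replicate 8 were lowest and HF-HI replicate 1 was highest. The summed level of large subunit and stalk transcripts together was 1.49 ± 0.050 times that of small subunit transcripts in Sham and 1.51 ± 0.0290 times in HF-HI.

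**Figure D1:**
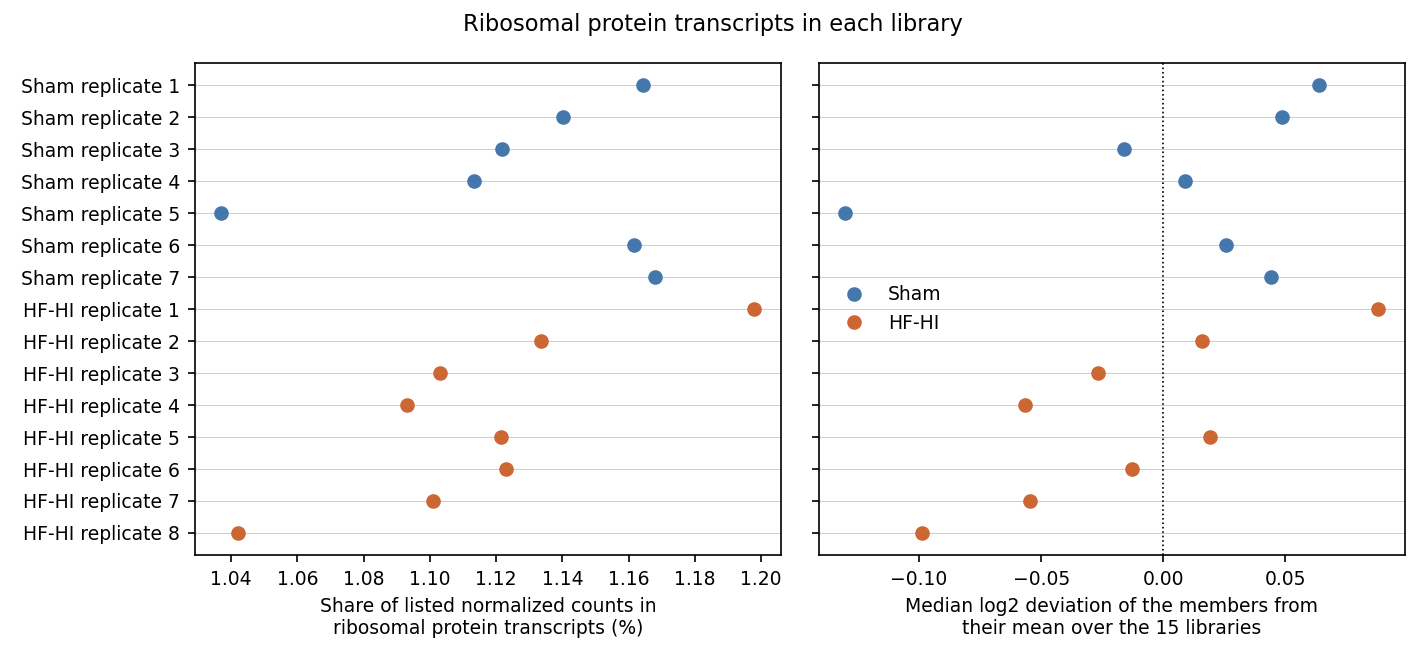
The left panel plots, for each of the 15 libraries, the share (%) of listed normalized counts in the 99 ribosomal protein transcripts, and the right panel the median over members of the log2 deviation from each member's own mean; blue points are Sham and orange points HF-HI. Sham replicate 5 (−0.13) and HF-HI replicate 8 (−0.10) are lowest and HF-HI replicate 1 (0.09) is highest, so the groups overlap.

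Some libraries stood low or high for most of the family. In Sham replicate 5 and in HF-HI replicate 8, 22 of 99 members lay above their own mean over the 15 libraries, while in HF-HI replicate 1, 78 did. The median deviation of the members was −0.13 on the log2 scale in Sham replicate 5, −0.10 in HF-HI replicate 8 and 0.09 in HF-HI replicate 1. The libraries with the low and the high values belong to both groups.

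The share of members that differed between HF-HI and Sham was near that of the table. At an unadjusted limma p under 0.05, 6 of 99 members (6.06%) differed, 1 higher and 5 lower, against 8.83% of all 10370 transcripts, of which 4.94% were higher and 3.9% lower. At a Benjamini-Hochberg adjusted p under 0.1 over all transcripts none did, as among all transcripts (0 of 10370), and the smallest adjusted p of a member was 0.404 in limma. All 6 calls fell among the 64 transcripts of genes with 1 listed member (9.38%), and none among the 35 of genes with several. The members' share is thus near that of the table and is not read as low for the family. The 6 calls were 2 of 55 large subunit transcripts (1 higher, 1 lower), 3 of 37 small subunit transcripts (all lower), 1 of 4 stalk transcripts (lower) and none of 3 paralogs.

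Differences were small and more often below than above 0. The median log2 ratio of mean normalized counts, HF-HI over Sham, was −0.03 over the members and −0.00 over all transcripts. The ratio was below 1 for 67 of 99 members (67.7%), against 50.5% of all transcripts. The ratio of 70 members lay within 0.1 of 0 on the log2 scale, which is a change of at most 7.18%. Ratios this small were common in the table as a whole. From −0.1 to 0, the bins of 0.05 held 20 and 28 members, and 1304 and 1946 of all 10370 transcripts. From 0 to 0.1 they held 15 and 7 members, and 1869 and 1274 of all transcripts. The number of members with a model difference below 0 was 67 and ran from 54 without HF-HI replicate 8 to 77 without Sham replicate 5. It was 58 with the log2 size factor of each library as a covariate, and 54 with a replicate block. Since some libraries stood low or high for most of the family, the members are not independent observations.

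The precision varied widely between members. The 95% confidence interval of the difference, from limma on log2(normalized counts + 1), extended 0.17 log2 to either side at the median. It lay wholly within ±0.25 log2 for 51 members and within ±0.5 for 84. For the other 15, of which 13 were transcripts of genes with several listed members, the interval reached past 0.5 in at least one direction. No member had groups that did not overlap; among all transcripts 0.0579% had every HF-HI library below and 0.0964% every HF-HI library above every Sham library.

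**Figure D2:**
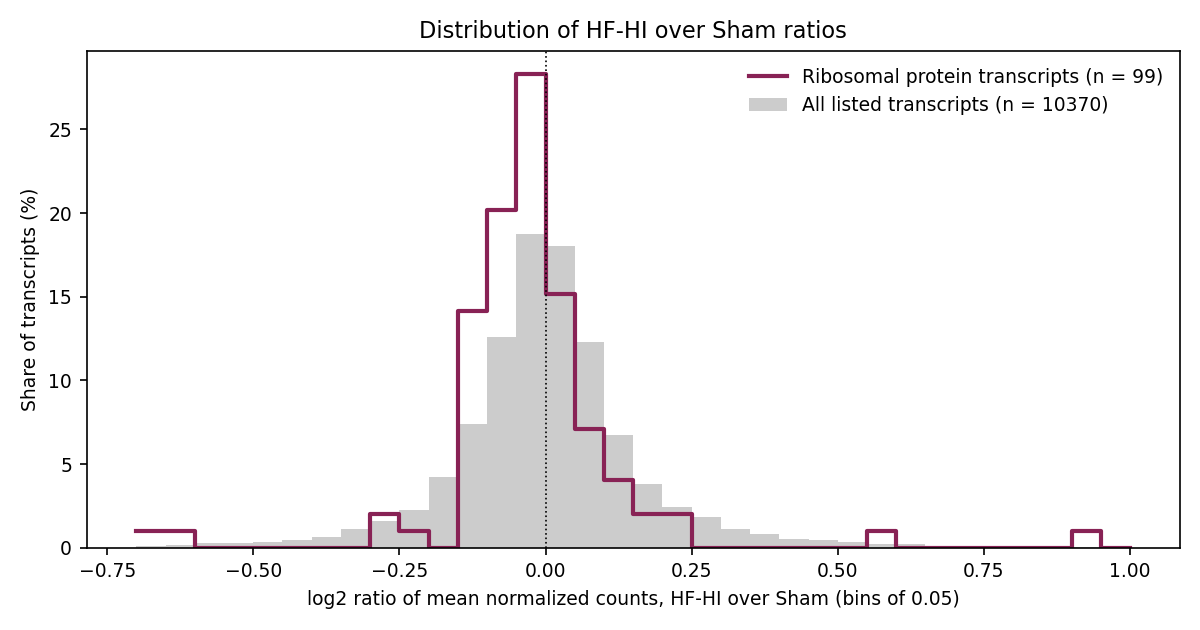
Share of transcripts (%) by log2 ratio of mean normalized counts, HF-HI over Sham, in bins of 0.05; gray bars are all 10370 listed transcripts and the purple line the 99 ribosomal protein transcripts. Most members lie between −0.15 and 0.1, with the bulk just below 0, and the few at the far ends are Rps16 and single transcripts of Rpl15, Rpl19 and Rpl5.

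The member with the smallest p was Rps16 (ENSMUST00000082134, chromosome 7, 28350652 to 28353155, plus strand, GRCm38, 5 exons), a small subunit protein whose tail reaches the peptidyl tRNA. Its lowest, median and highest normalized counts were 216, 333 and 560 in Sham and 144, 221 and 302 in HF-HI. All 8 HF-HI libraries were under the Sham median, the highest Sham library was replicate 2 and the lowest HF-HI library replicate 4, and the groups overlapped between 216 and 302. The means were 346 ± 117 and 220 ± 55.1 (SD), a log2 ratio of −0.65, with a limma unadjusted p of 0.00804 (adjusted p = 0.404). The interval of the log2 difference ran from −1.06 to −0.19. Its coefficient of variation over the 15 libraries, 38.6%, was the highest among the 64 genes with a single listed member, whose median was 8.79%.

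Rpl18 (ENSMUST00000072503, chromosome 7, 45718071 to 45720835), a large subunit protein, was the only member higher at an unadjusted p under 0.05. Its lowest, median and highest values were 533, 557 and 589 normalized counts in Sham, against 548, 619 and 673 in HF-HI. Of 8 HF-HI libraries, 7 were over the Sham median. The means were 558 ± 19.2 and 613 ± 40.2, a log2 ratio of 0.13 (limma unadjusted p = 0.00916, adjusted p = 0.408, interval 0.04 to 0.22). It is the one listed transcript of 8 annotated as protein-coding for the gene.

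Rpl6 (ENSMUST00000031617, chromosome 5, 121204481 to 121209241), a large subunit protein specific to eukaryotes, had 1266, 1436 and 1466 normalized counts in Sham, against 1092, 1293 and 1381 in HF-HI (lowest, median, highest). All 8 HF-HI libraries were under the Sham median, and Sham replicate 5 lay among them. The log2 ratio of the means, 1405 ± 68.6 and 1276 ± 101, was −0.14 (limma unadjusted p = 0.0123, adjusted p = 0.438).

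Rps9 and Rps2, proteins of the small subunit, were each lower by about as much as Rpl6. Rps9 (ENSMUST00000006496, chromosome 7, 3703993 to 3706897) had 906, 987 and 1065 normalized counts in Sham, against 797, 937 and 968 in HF-HI, with all 8 HF-HI libraries below the Sham median. Its log2 ratio was −0.12 (limma unadjusted p = 0.0181, adjusted p = 0.476). Rps2 (ENSMUST00000170715, chromosome 17, 24720063 to 24721926) had 1450, 1579 and 1652 in Sham and 1172, 1416 and 1648 in HF-HI. Here 7 of 8 HF-HI libraries were under the Sham median and HF-HI replicate 1 reached the level of the highest Sham libraries. Its log2 ratio was −0.15 (limma unadjusted p = 0.0282, adjusted p = 0.514).

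Rplp1 encodes an acidic protein of the stalk that recruits elongation factors to the ribosome, and it was the most abundant member per length. Its transcript (ENSMUST00000008036, chromosome 9, 61913284 to 61914542, minus strand) had 2122, 2425 and 2577 normalized counts in Sham, against 1917, 2203 and 2420 in HF-HI. All 8 HF-HI libraries were under the Sham median, and the ranges overlapped over most of their width. The log2 ratio was −0.12 (limma unadjusted p = 0.0378, adjusted p = 0.539), with an interval of −0.24 to −0.01. Rplp1 kept a p under 0.05 in 7 of 15 fits that each left out 1 library and Rps2 in 10 of 15, while Rps16, Rpl18, Rpl6 and Rps9 kept it in all 15.

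**Figure D3:**
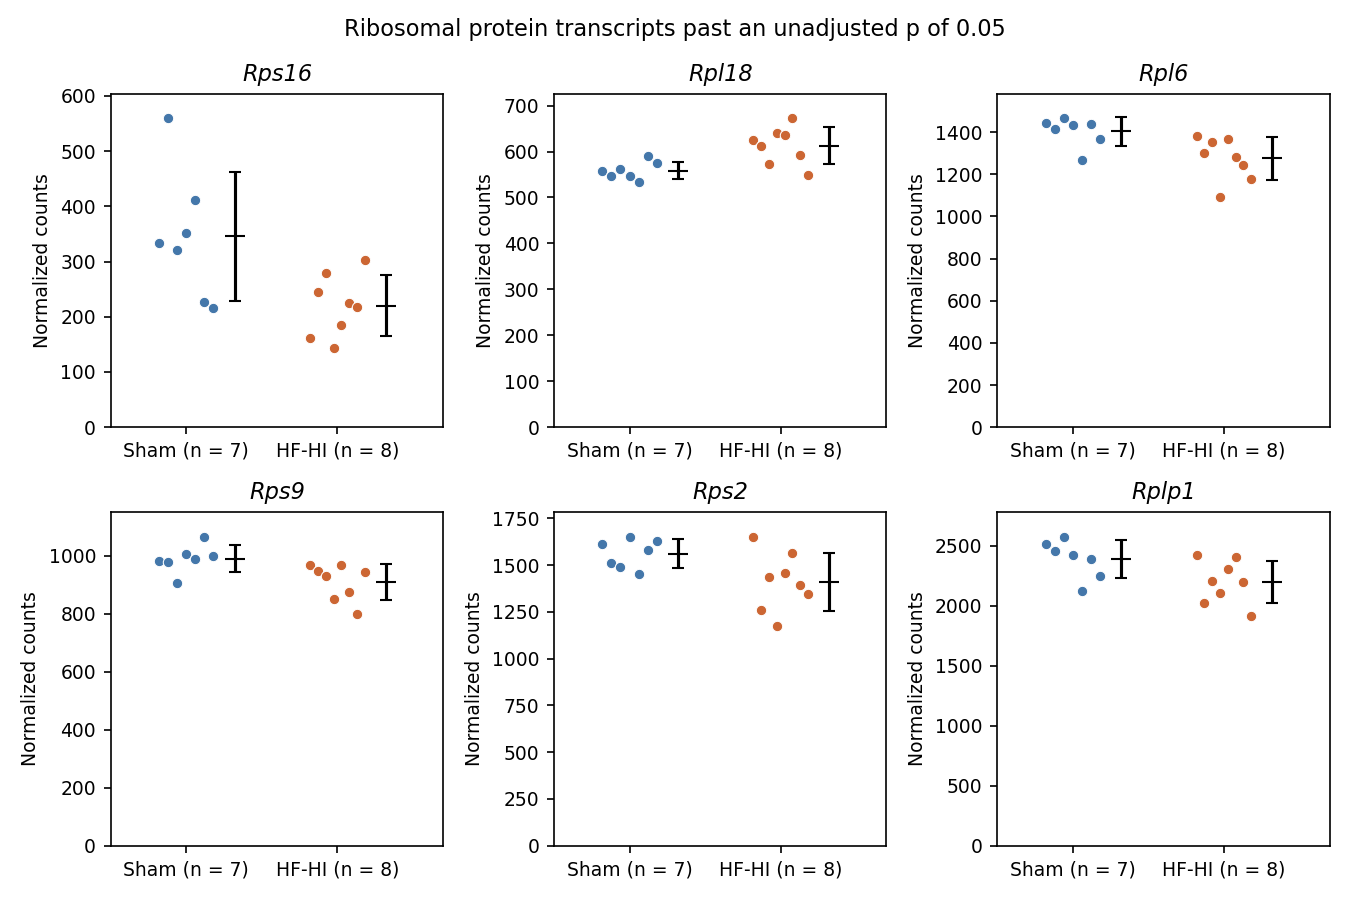
Normalized counts (vertical axes, from 0) of the 6 members with an unadjusted limma p under 0.05, with 1 point per library, blue for Sham (n = 7) and orange for HF-HI (n = 8), and the mean ± SD in black beside each group. The groups overlap for every one, Rps16 shows the widest spread, and Rpl18 is the only one higher in HF-HI.

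None of these 6 calls held once depth entered the model. With the log2 size factor of each library as a covariate, their p-values in limma lay between 0.0557 (Rps16) and 0.375 (Rps9). Rps16 kept a VSD difference of −0.14, against −0.17 without the covariate, while that of Rps9 went from −0.06 to −0.02, that of Rps2 from −0.08 to −0.04 and that of Rpl6 from −0.07 to −0.05. Rpl18 went from 0.05 to 0.04. For Rplp1 the difference was −0.08 in both fits, and its SE rose from 0.0336 to 0.0421. The same fit called 1 member, Rpl7a, a large subunit protein, lower (unadjusted p = 0.0455, adjusted p = 0.950), and 5.14% of all transcripts. Rpl7a is named after its values were seen; without the covariate it had 995 ± 81.0 normalized counts in Sham, against 996 ± 93.1 in HF-HI. Since HF-HI libraries were shallower on average, depth and group cannot be fully told apart.

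Other members with small p-values were above the threshold with all 15 libraries, but some passed in other fits. Rps10, a small subunit protein, had 432, 523 and 577 normalized counts in Sham, against 256, 401 and 615 in HF-HI (limma unadjusted p = 0.0624, adjusted p = 0.590), with both the lowest and the highest library in HF-HI. It passed without HF-HI replicate 1 (limma unadjusted p = 0.0133), HF-HI replicate 5 (unadjusted p = 0.0215) or Sham replicate 5 (unadjusted p = 0.0422). Rps29, a zinc-binding small subunit protein, had 1588 ± 123 and 1457 ± 170 (unadjusted p = 0.0984). On the other side, Rpl35, which lies near the exit of the peptide tunnel, had 447, 517 and 555 in Sham and 428, 597 and 648 in HF-HI (unadjusted p = 0.0833), with 7 of 8 HF-HI libraries above the Sham median and HF-HI replicate 2 below every Sham library. Without that library Rpl35 was called higher (limma unadjusted p = 0.0051, adjusted p = 0.382), the smallest p of a member in that fit, and it also passed with library weights (unadjusted p = 0.0327). Rpl15 ENSMUST00000080281 had 629 ± 43.9 and 677 ± 53.7 (unadjusted p = 0.0829), and passed without HF-HI replicate 5 (limma unadjusted p = 0.0475) or Sham replicate 3 (unadjusted p = 0.0396).

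Of the members with well-known roles that were named whatever their values, Rplp1 was called lower, as given above, and the others did not pass. Their ratios ranged from near 1 to larger ones with wide intervals, as for Rplp2 ENSMUST00000106004 (log2 ratio 0.22, limma unadjusted p = 0.301) and Rpl41 (−0.13, unadjusted p = 0.315). The Rplp2 ratio is one of means that include Sham replicate 2, at 0.922 normalized counts against 556 to 829 in the other Sham libraries. The medians of this Rplp2 transcript were 609 in Sham and 618 in HF-HI. Rps6, the substrate of the S6 kinases whose phosphorylation is read as mTOR activity, had 1483 ± 111 normalized counts in Sham, against 1478 ± 122 in HF-HI, with an interval of −0.13 to 0.11 log2. Rpl3, at the peptidyl transferase center, had 2320 ± 133 and 2315 ± 109, with an interval of −0.09 to 0.08. Rpsa, also known as the laminin receptor, had 2206 ± 69.1 and 2234 ± 196, with an interval of −0.09 to 0.12. For these, differences beyond the bounds given lie outside the 95% interval.

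Rplp0, the scaffold of the stalk and a common reference gene in quantitative PCR, had 1111 ± 75.2 normalized counts in Sham, against 1084 ± 123 in HF-HI (interval −0.19 to 0.11). Rpl11, which with Rpl5 forms the particle that restrains Mdm2, had 700 ± 56.8 and 725 ± 62.9 (−0.09 to 0.19). Rps4x, the X-linked small subunit gene, had 1079 ± 99 and 1074 ± 47.8 (−0.11 to 0.11). Rpl22 is known to repress its paralog Rpl22l1. The longer listed Rpl22 transcript had 388 ± 35.7 and 360 ± 40.0 (limma unadjusted p = 0.158). The shorter one went the other way, with 149 ± 33.9 and 167 ± 44.1, and the sum of both was 537 ± 56.4 and 526 ± 31.9. Rpl22l1 had 190 ± 30 and 189 ± 25.8, with an interval of −0.24 to 0.23.

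Rps27a, a ubiquitin fusion, had 629 ± 43.3 normalized counts in Sham, against 594 ± 97.4 in HF-HI in its higher transcript (unadjusted p = 0.358). Rpl10, which joins the large subunit late in its maturation, had 1122 ± 102 and 1087 ± 92.2 (unadjusted p = 0.491). Rps27, a zinc-binding small subunit protein, had 346 ± 43.1 and 335 ± 59.7 (unadjusted p = 0.624). None of these differed beyond the spread between libraries in limma.

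The largest swings between libraries were in genes with several listed transcripts. Of the 80 genes, 64 had 1 listed member, 13 had 2 and 3 had 3. The median coefficient of variation was 22.9% over the 35 transcripts of the 16 genes with several, against 8.79% over the 64 single ones and 12.2% over all transcripts. When the transcripts of each of these 16 genes were summed, the median fell to 8.34%, and in 13 genes the sum varied less than any of its transcripts. The counts per transcript were estimated by the authors with eXpress, which divides reads between transcripts that share sequence, so a level of such a transcript is uncertain.

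Rplp2, the partner of Rplp1 in the stalk, had the clearest case. Its transcript ENSMUST00000106004 had 0.922 normalized counts, the worth of 1 read, in Sham replicate 2 and between 483 and 891 in the other libraries. In Sham replicate 2 the other transcript, ENSMUST00000084434, had its highest value, 321. The sum of both was 322 in that library, the lowest of all, and lay between 556 and 1039 in the other 14. The drop in one transcript was thus not made up by the other.

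Rpl5, which binds the small rRNA of the large subunit, had its short transcript ENSMUST00000153590 at or near 0 in 4 of 7 Sham libraries and 1 of 8 HF-HI libraries. It lay at 0 to 273 normalized counts in Sham (median 8.30) and at 0 to 318 in HF-HI (median 174), a coefficient of variation of 82.2% and a limma unadjusted p of 0.106. Sham replicate 7 and HF-HI replicate 2 had no read of it. It was called higher without HF-HI replicate 2 (limma unadjusted p = 0.0181), without Sham replicate 5 (unadjusted p = 0.0308) and with library weights (unadjusted p = 0.0494). The long transcript ENSMUST00000082223 had 1280 ± 114 in Sham and 1196 ± 156 in HF-HI, and was called lower without HF-HI replicate 2 (limma unadjusted p = 0.0343). The sum of both was 1366 ± 90.4 and 1361 ± 99.5. The sum of these protein-coding transcripts was therefore nearly equal between groups while the log2 ratio of the short one was 0.93. A listed retained-intron transcript of Rpl5 is not in that sum and had means of 228 in Sham and 168 in HF-HI. With it included, the difference per gene was −0.0542 (voom and limma unadjusted p = 0.156).

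Rpl19 showed the same over its pair of transcripts. ENSMUST00000092425 spanned 81.1 to 366 normalized counts in Sham, against 99.2 to 631 in HF-HI, highest in HF-HI replicate 2, where its partner was lowest (1122). The sum was 1844 ± 59.1 in Sham and 1797 ± 56.5 in HF-HI, with a coefficient of variation of 3.34%. Of the 3 listed transcripts of Rpl15, ENSMUST00000100799 ran from 14.6 to 491 while the sum lay between 835 and 1186.

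**Figure D4:**
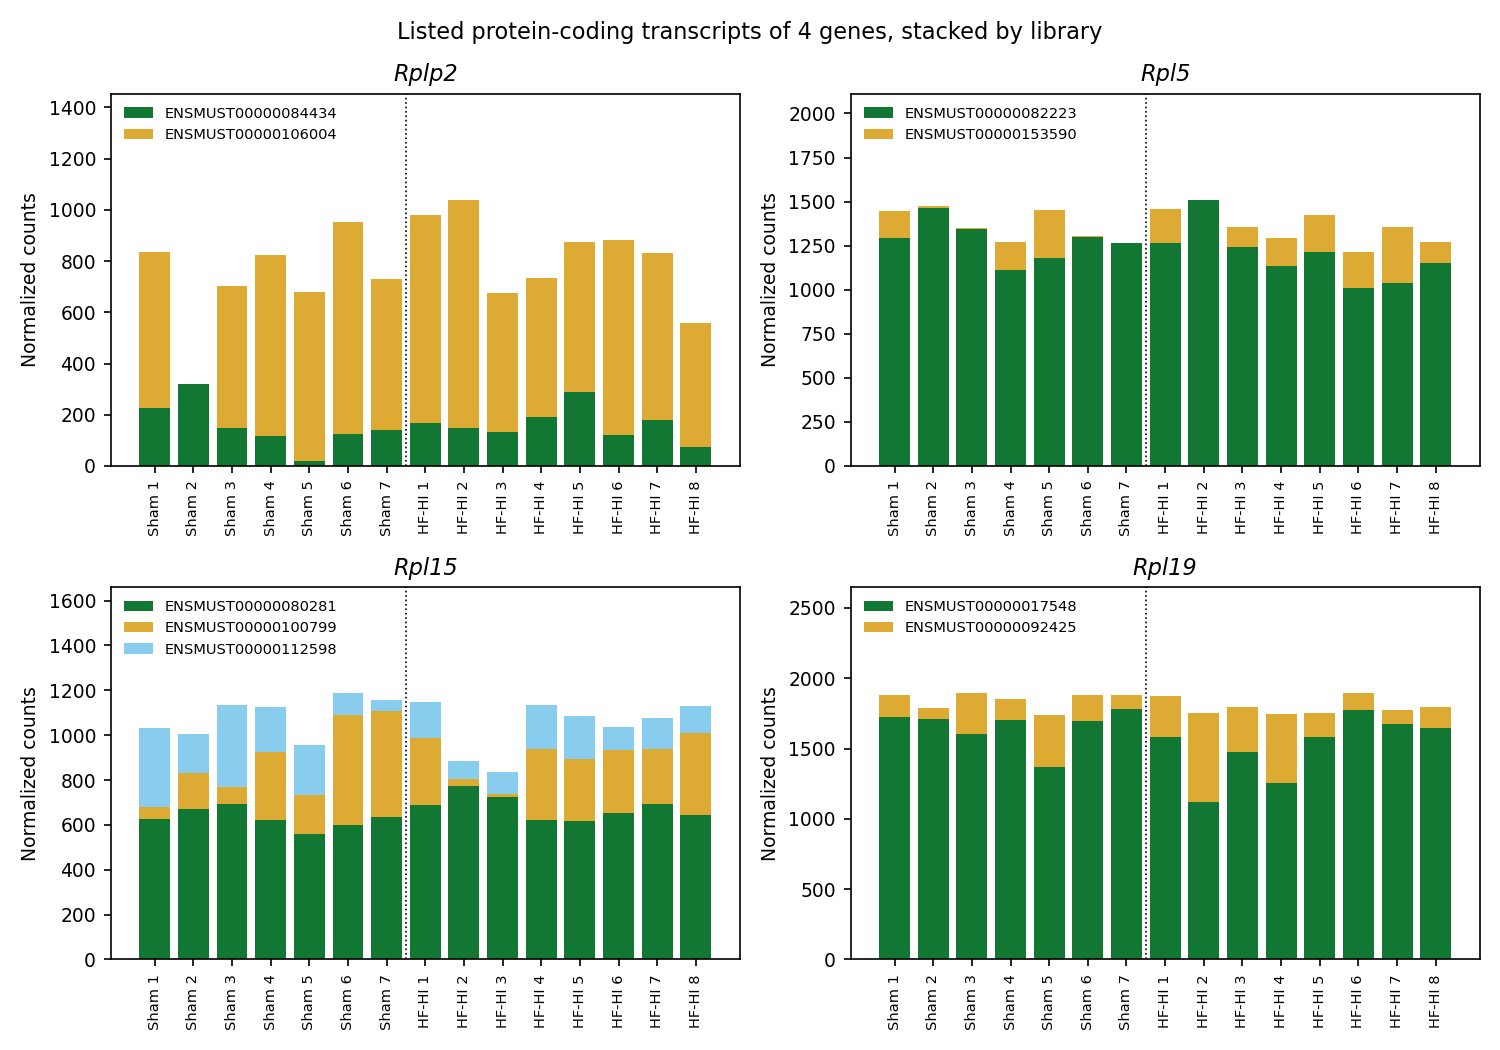
Normalized counts of the listed protein-coding transcripts of Rplp2, Rpl5, Rpl15 and Rpl19, stacked in a bar for each library, with Sham libraries left and HF-HI libraries right of the dotted line. The total of Rpl19 is steady (coefficient of variation 3.34%) while its parts shift, and Rplp2 lacks its main transcript in Sham replicate 2.

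Reads summed per gene gave a similar picture of the comparison. With voom and limma on recovered whole reads, 8 of 80 genes (10%), 2 higher and 6 lower, differed at an unadjusted p under 0.05, against 9.42% of 7738 genes (5.2% higher, 4.23% lower). None of the 80 had an adjusted p under 0.1, against 0.0129% of all genes, and the smallest was 0.388. The higher genes were Rpl18 and Rpl35, and the lower ones Rps16, Rpl6, Rps9, Rps2, Rplp1 and Rpl38. Rpl38, a large subunit protein known for a role in translation of patterning mRNAs in the embryo, had a summed level of 1042 ± 43.4 in Sham and 946 ± 95.3 in HF-HI (voom and limma unadjusted p = 0.0216, adjusted p = 0.436). Neither of its 2 listed transcripts passed alone (unadjusted p = 0.184 and 0.283). Rps19, the gene first linked to Diamond-Blackfan anemia, had 690 ± 67.5 and 684 ± 43.1 when summed.

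Levels per kilobase of transcript spanned a wide range. The lowest member had 36.4 normalized counts per kilobase and the highest 4586, with a median of 925, means over all 15 libraries. Rplp1 was highest in counts per kilobase, followed by Rps29 (3892) and Rps21 (3257), a short small subunit protein. Lowest were the 2 long transcripts of Rps15a (36.4 and 60.2) and the paralog Rpl7l1 (82.3). Rpl41, which encodes the shortest ribosomal protein, had 3003 per kilobase in its main transcript.

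**Figure D5:**
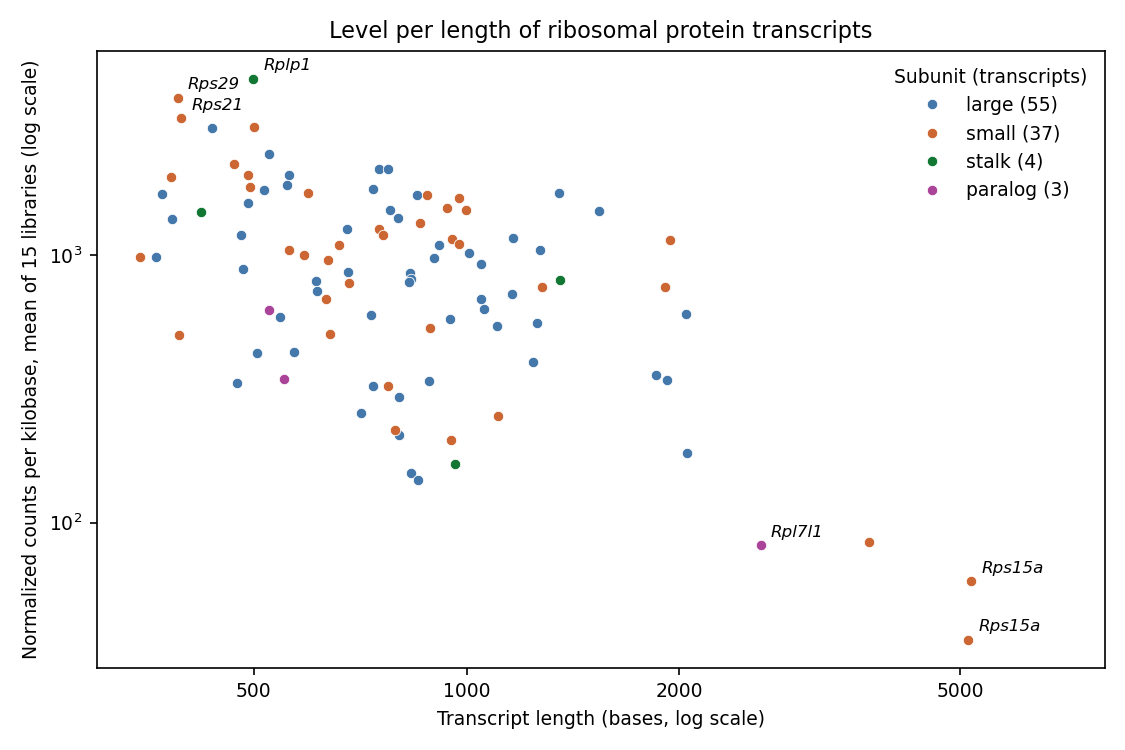
Normalized counts per kilobase (mean of 15 libraries, log scale) against transcript length in bases (log scale) for the 99 members, colored by subunit. Short transcripts tend to lie higher, from Rplp1 at 4586 down to an Rps15a transcript at 36.4. Length enters both axes.

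Short members lay higher on this scale, which divides by annotated length, so length enters both sides of the comparison. The median level per kilobase was 1634 for the 18 members under 500 bases, 911 for the 56 of 500 to 1000 bases and 631 for the 25 longer ones. Members were short for this table, with a median length of 780 bases against 3711 for all transcripts, and abundant, with a median of 679 normalized counts against 316. These levels depend on which annotated transcript the authors' counting gave the reads to.

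Ribosomal protein genes have many processed pseudogenes, which bears on how surely reads could be placed. Of the 99 members, 92 had at least one 100-base window that also occurs in a transcript of another annotated gene, and 36 had more windows shared so than not. The median was 37.7% of windows, with Rps27 highest at 98.4% and the transcripts of Rpl22, Rpl32, Rps3 and Rps21 among those at 0. Among the 6 called members the shared part was 33.9% for Rps16, 55.3% for Rpl18, 54.2% for Rpl6, 25% for Rps9, 64.7% for Rps2 and 30% for Rplp1. How far shared sequence altered the counts of these members was not tested.

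The member genes had 6 further listed transcripts that were not annotated as protein-coding, and 1 differed at an unadjusted p under 0.05. This processed transcript of Rpl11 (ENSMUST00000125726) had 80.7, 148 and 158 normalized counts in Sham, against 71.4, 106 and 123 in HF-HI, with all 8 HF-HI libraries below the Sham median (limma unadjusted p = 0.016, adjusted p = 0.461). The protein-coding Rpl11 transcript, given above, lay in the other direction without passing the threshold.

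The lists around the ribosome are small, so their counts are given beside the 8.83% of all transcripts that passed and not read further. Of 23 transcripts of other TOP mRNAs (elongation and initiation factors among them), 1 was lower and none higher at an unadjusted p under 0.05, the translation initiation factor subunit Eif3l (393 ± 17.3 in Sham, 361 ± 33.8 in HF-HI, limma unadjusted p = 0.0484). Of 48 ribosome biogenesis transcripts 1 was lower, Utp6 of the small subunit processome (305 ± 14.8 and 281 ± 21.5, limma unadjusted p = 0.0435), and none higher. Of 36 transcripts of mTOR and S6 kinase signalling none passed, with the smallest p at Lamtor4 (0.0817). The median log2 ratios of these lists were −0.02, 0.01 and 0.01.

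Mitochondrial ribosomal proteins, a separate set of nuclear genes, had 1 higher and 1 lower of 40 transcripts. Mrps18a had 201 ± 14.3 normalized counts in Sham, against 227 ± 12.9 in HF-HI (limma unadjusted p = 0.0095), and Mrps33 had 335 ± 16.5 and 308 ± 23.0 (unadjusted p = 0.0363). Their median log2 ratio was −0.04, beside −0.03 for the cytosolic members. Of 83 transcripts of nuclear oxidative phosphorylation genes, 1 was higher and 3 were lower.

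Fau and Rack1, proteins of the ribosome outside the name rule, did not pass. Fau had 901 ± 37.1 normalized counts in Sham, against 873 ± 108 in HF-HI (limma unadjusted p = 0.476). Rack1, a scaffold protein on the small subunit, had 750 ± 95.5 and 793 ± 137 in its protein-coding transcript (unadjusted p = 0.495).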

How the data were processed

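Per the study's methods, the authors depleted ribosomal RNA, prepared stranded total RNA libraries, aligned reads to mm10 with STAR, estimated counts per transcript with eXpress and normalized them with DESeq2. The deposited values are variance-stabilized (VSD) on the log2 scale, for 10370 transcripts. Here the VSD was inverted to normalized counts; 100% of values were whole reads within 0.1. The lowest mean was 107.9 normalized counts, so rarer transcripts were not analysed here. Transcripts were matched to GENCODE M21 (10238 matched, 132 not). Each transcript was tested on VSD with limma 3.58.1 (R 4.3.3), group only, eBayes with trend, two-sided, Benjamini-Hochberg adjustment over all transcripts, at 0.1. VSD differences understate log2 ratios, which are of mean normalized counts. Code was tested on simulated counts. Intervals cover the spread between libraries only.

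Members and lists were chosen with earlier results of these data known. Named members were the 8 of smallest p in each direction, a fixed set of well-known genes, the extremes per kilobase and the 3 most variable. Some genes that this rule or a list names are not reported here. Alternatives changed block, depth covariate, scaling, prior, weights, scale, count model, summing per gene, low filter and each library.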

Additional observations from a re-analysis of the deposited data

Results flagged for a closer look

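Groups of values for the named members, their share and the subunit ratio were screened for a single library far from the others of its group, by Dixon's test at the 95% level. Of 78 groups screened 9 were flagged, and chance flags about 1 in 20 groups. The share of counts in ribosomal protein transcripts was 1.04% in Sham replicate 5, against 1.11% to 1.17% in the other Sham libraries. The ratio of large subunit and stalk counts to small subunit counts was 1.6 in Sham replicate 3 and lower, 1.45 to 1.5, in the other Sham libraries. Rplp2 ENSMUST00000106004 had 0.922 normalized counts in Sham replicate 2, against 556 to 829. Rpl3 had 2032 in Sham replicate 5, against 2312 to 2429, and 2066 in HF-HI replicate 8, against 2309 to 2449. Sham replicate 6 was high for Rpl34 (665, against 521 to 554) and for Rpl38 ENSMUST00000106602 (787, against 580 to 655). Rpl21 ENSMUST00000075453 had 691 in Sham replicate 2, against 835 to 921, and Rps15a ENSMUST00000172457 had 249 in Sham replicate 5, against 166 to 198.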

How the results depend on the processing

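As reported, 1 member was higher and 5 were lower at an unadjusted p under 0.05. With the size factor as a covariate these counts were 0 and 1 (1.01% of members, against 5.14% of all transcripts). With library weights they were 3 and 5 (8.08%, against 8.83%), and with reads summed per gene 2 and 6 (10%, against 9.42% of all genes). Leaving out each library gave 1 to 3 higher and 3 to 6 lower; the higher count was 3 without HF-HI replicate 2 and 2 without HF-HI replicate 5 or without Sham replicate 3, 5 or 7, and the lower count was 3 without Sham replicate 1 or 4. In the fits without 1 library, 4.04% to 8.08% of members and 7.21% to 9.52% of all transcripts passed. Centering, quantile normalization, the prior without trend, log2 of normalized counts, voom per transcript and the filter that dropped the lowest means each kept 1 and 5. Of all transcripts, these 6 alternatives called 8.47% to 9.22%. The median log2 ratio stayed below 0 in every one of these fits, from −0.04 to −0.01. Summing per gene turned the log2 difference from above to below 0 for Rpl5 ENSMUST00000153590 (−0.0542), Rpl15 ENSMUST00000080281 (−0.0649) and Rpl19 ENSMUST00000092425 (−0.0347), since the sums hold their other transcripts. Of all 924 values recomputed, 883 kept direction and side of the threshold.

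With a replicate block the counts were 3 higher (Rpl18, Rpl15 and Rpl21) and 4 lower (Rps16, Rpl6, Rps9 and Rpl38). That is 7.07% of members, against 8.59% of all transcripts. Rplp1 and Rps2 lost their calls (limma unadjusted p = 0.10 and unadjusted p = 0.062). Deviations of same-numbered libraries correlated between −0.14 and 0.09, and only replicate 4 correlated best with its own number, so the numbers were not taken to pair libraries. Low depth limits precision most in HF-HI replicate 4, where a read was worth 2.0 normalized counts.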
